A study of Homo sapiens with 91 samples.

Results

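PSN1 and RH4 are established human cancer cell lines, given in the labels as pancreatic adenocarcinoma and rhabdomyosarcoma, and their RNA was compared here in the absence of drug. The comparison used the DMSO vehicle libraries of both lines at 4 h and 8 h, 16 of the 91 libraries of a study of the kinase CDK9, which also treated cells with the inhibitor KB-0742 and the degrader KI-CDK9d-32. Each of the 4 groups (PSN1 at 4 h, PSN1 at 8 h, RH4 at 4 h and RH4 at 8 h) held 4 libraries, so 8 libraries of PSN1 stood against 8 of RH4 with time as a covariate. In every group 1000 cells were seeded, exposed to DMSO for the stated time in RPMI medium with fetal bovine serum, and lysed. No group carried a labelled genetic change, and the series design text writes RH1 where each sample label says RH4. Each tissue is represented by 1 line, so a difference of lineage and a difference of these particular lines cannot be told apart. The counts of each line also came in a table of its own, so line and table cannot be told apart either. The replicates are called biological, but separate cultures are not stated, and the p-values therefore reflect only library-to-library spread, which may be in part technical. Within a line, 12 of 16 libraries best matched the same replicate number at the other time. No test modelled such pairs, so the 8 libraries of a line may not be independent.

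Rhabdomyosarcoma is a tumor of cells committed to skeletal muscle that fail to complete differentiation. The basic helix-loop-helix factors MYOD1 and MYOG drive the muscle program by binding E-box sequences, and fusion-positive tumors carry PAX3-FOXO1, a chimeric factor that keeps this program and receptors such as FGFR4 active. Pancreatic adenocarcinoma arises from exocrine epithelium, typically expresses simple epithelial keratins and gastric-type mucins, and commonly shows active signaling through the MAPK cascade.

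Library totals over genes ran from 1998707 to 3080901 counts in PSN1 and from 1670100 to 2917945 in RH4, and 16423 to 18821 and 16551 to 19171 genes had at least 1 count. The first principal component separated the lines and held 78% of the variance. PSN1 at 8 h, replicate 1, stood apart on the second component (3.34% of the variance), and its 10 most abundant genes took 27% of its gene counts against 18.7% to 22.3% in the other PSN1 libraries. Without it 4496 genes were called higher in PSN1 and 4221 higher in RH4, against 4338 and 4059 with it. Spike-in RNA, added in equal amount to each lysate, took 9.87% to 17.6% of counts in PSN1 (median 12.6%) and 7.51% to 12.6% in RH4 (median 9.28%), a log2 difference of 0.38 (two-sided exact permutation within time, p = 0.0126, with 0.171 at 4 h and 0.0857 at 8 h alone; the smallest p the design allows is 0.000408). The number of cells in each lysate was not analysed here, and fewer cells and less RNA per cell cannot be told apart. Of 21 T-lineage and blood markers only CD14, a monocyte receptor, passed the filter on low counts, and it was higher in PSN1 (8.33, 15.7 and 23.9 CPM against 0, 0.334 and 1.35; 4.9 ± 0.43), while CD3D, CD3E and LCK were at 0 counts in every library. The summed level of that list was 3.56 to 12.9 TPM in PSN1 and at most 0.909 TPM in RH4. Of 15 endothelial, fibroblast and melanocyte markers 5 were tested, with COL1A1, PECAM1, PDGFRA and LUM higher in PSN1, the last pair beyond 4-fold, and CLDN5 higher in RH4. Their summed level was 3.29 to 5.35 TPM in PSN1 and 0.916 to 2.7 TPM in RH4, and the part of such cells in the results was not tested.

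The counts that a line had for genes much higher in the other line were not evenly spread over libraries. Some of these genes, such as TIMP1 and CD44 in RH4, were also expressed in the lower line. The 700 genes higher in PSN1 beyond 4-fold and by at least 5 on the log2 scale had 1455 counts in RH4 at 4 h, replicate 1, with 196 of them detected, and 413 to 1172 counts with 85 to 145 detected in the other RH4 libraries. The 413 counts were in RH4 at 4 h, replicate 4, which had the lowest gene count total (1670100). Scaled to CPM by gene total alone, the counts of these 700 genes in RH4 fell with replicate number at both times. For replicates 1 to 4 they read 529, 347, 310 and 247 at 4 h and 448, 323, 278 and 267 at 8 h. The 551 corresponding genes of RH4 had 135 to 293 counts in each PSN1 library. For 31 of the 142 named genes the fold moved by more than 1.5 times when 1 library was left out, and 9 of these moved without RH4 at 4 h, replicate 1. All kept their call. Values without such a library are given beside each fold or ratio they touch, and the source of these counts was not tested.

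Of 12897 genes tested, 8397 (65.1%) differed between the lines at an adjusted p under 0.05 in edgeR's quasi-likelihood test, 4338 (33.6%) higher in PSN1 and 4059 (31.5%) higher in RH4. Because most genes differed, a second test asked which differed by more than 4-fold. It called 2069 genes (16%), 1153 higher in PSN1 (8.94%) and 916 higher in RH4 (7.1%). For 4368 genes (33.9%) the 8 values of one line did not overlap the 8 of the other. The counts of gene lists below stand against these shares of all genes. Fold changes below are log2 values of PSN1 over RH4 with their standard error, and levels are CPM (counts scaled to the library's total by TMM), given as the lowest, the median and the highest of 8 libraries. The median over all genes was 0.02 with TMM scaling, -0.61 with spike-in scaling and -0.24 on log2 TPM, so the direction of a small difference holds only for the scaling used. With spike-in scaling 2166 genes were higher in PSN1 and 6547 higher in RH4, and on log2 TPM 3016 and 5503.

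**Figure D1:**
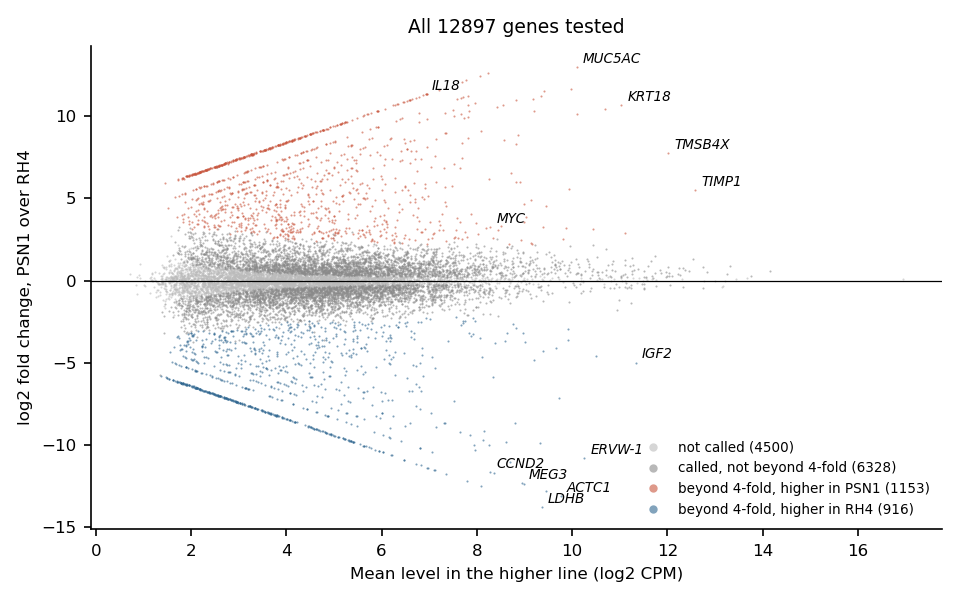
Each point is 1 of the 12897 genes tested, by its mean level in the higher line (log2 CPM) and its fitted log2 fold change of PSN1 over RH4. Colored points are the 1153 and 916 genes called beyond 4-fold; the straight edges are genes at 0 counts in one line, whose fitted value is set by the model and is no measure of size.

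The most abundant genes with a fitted difference of at least 5 on the log2 scale and no overlap were, higher in PSN1, the metalloproteinase inhibitor TIMP1, the actin-binding peptide TMSB4X, the keratins KRT18 and KRT8, MUC5AC, S100A4, TAGLN2, CD44, the neuropeptide precursor NTS and the crosslinking enzyme TGM2. TIMP1 read 3607, 6443 and 7713 CPM in PSN1 and 103, 129.9 and 171 in RH4 (5.52 ± 0.19, adjusted p = 3.27e-14). TMSB4X read 3296, 4152 and 5473 CPM in PSN1 and 2.31, 12.4 and 57.1 in RH4, where replicates 1 and 2 were the high ones at both times. In RH4 the corresponding genes were the endogenous retroviral envelope gene ERVW-1, the muscle genes ACTC1, TNNT1, CHRNA1 and MYOG, the lactate dehydrogenase subunit LDHB, the peroxidasin PXDN, the long noncoding RNA MEG3, FGFR4 and the carboxypeptidase CPA5. ERVW-1 read 904, 1252 and 1453 CPM in RH4, and it was at 0 in most PSN1 libraries (highest 4.17). It belongs to a repeated family, and TMSB4X has processed copies, so how counts were shared among copies is uncertain for both.

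The factors that specify muscle were present in RH4 and at or near 0 counts in PSN1. Of 20 myogenic regulators, 17 were tested, 15 were higher in RH4, 13 of them beyond 4-fold, and 1 was higher in PSN1, against 31.5% and 7.1% of all genes. Of the 17, 6 were at 0 counts in 1 line and 4 at 1 to 3. Such genes could pass the filter only through the other line, so the filter fixed their direction. The same holds for such genes in every list, so list counts are descriptions and not tests. The list's median was -7.2, or -6.73 with genes absent from one line set at their bound, beside 0.02 over all genes. MYOD1, the master regulator of the skeletal muscle program, read 253, 319.5 and 409 CPM in RH4. A single MYOD1 count was found among all 8 PSN1 libraries, a ratio of 6596 with a 95% counting interval of 1184 to 260600. That count was in PSN1 at 4 h, replicate 2, without which MYOD1 was at least 1913-fold lower in PSN1. MYOG, which acts after MYOD1 and starts terminal differentiation, read 323, 403 and 566 CPM in RH4 and had 3 counts in PSN1, all in the same library. The myoblast fusion genes MYMK (13.9, 21.4 and 31.7) and MYMX (27.7, 39.1 and 44.5) were at 0 in all PSN1 libraries. They were at least 147 and 242-fold lower there. MEF2D was the regulator higher in PSN1 (0.94 ± 0.23, adjusted p = 0.000808), with overlapping libraries, and MEF2A was not called (0.39 ± 0.29, adjusted p = 0.24).

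Genes for the contractile apparatus followed the same order of lines. All 14 tested of 27 sarcomere genes were higher in RH4, 12 beyond 4-fold, with a median of -8.41. Of the 14, 3 were at 0 counts in 1 line and 6 at 1 to 3, so the filter fixed their direction. Cardiac alpha-actin, ACTC1, which immature skeletal muscle also makes, read 676, 870.2 and 1064 CPM in RH4 and had 1 count in PSN1. The intermediate filament gene DES read 201, 253 and 306 CPM in RH4 and had 3 counts in PSN1. The slow troponins TNNI1 (206, 271 and 346 CPM) and TNNT1 (776, 834 and 939 CPM) were likewise high in RH4, and TNNI1 was at 0 in PSN1, at least 1806-fold lower. The giant proteins behaved unequally: NEB (nebulin) had 6 counts in PSN1 against 5186 in RH4, whereas TTN (titin) read 20.3, 22.3 and 33 CPM in PSN1 and 230.1, 269.5 and 303 in RH4 (-3.51 ± 0.11). Of the 14, TPM2, a tropomyosin made in many cell types, differed least (-0.64 ± 0.08, adjusted p = 1.2e-07). Markers of mature fibers were low in both lines: ACTA1 and CKM, adult skeletal actin and muscle creatine kinase, had 12 and 6 counts over the 8 RH4 libraries. MYH8, the gene of perinatal myosin, had 2 there.

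The acetylcholine receptor and the excitation machinery formed a further muscle group. 15 of 16 tested genes (of 21) were higher in RH4, 13 beyond 4-fold, and 1 was higher in PSN1. CHRNA1, the alpha subunit that binds acetylcholine, read 608, 635 and 687 CPM in RH4 and 0, 0 and 2.82 in PSN1 (-9.86 ± 0.32, adjusted p = 9.73e-15). All 13 PSN1 counts of CHRNA1 lay in 4 h replicate 2 and 8 h replicate 1, and the difference was -10.68 without the former and -10.53 without the latter. The delta subunit CHRND (128, 167 and 190 CPM in RH4) was at 0 in PSN1, at least 1075-fold lower, as was SGCA of the dystrophin complex, at least 946-fold lower. RAPSN, which clusters the receptor, had 4 counts in PSN1 against 5512 in RH4. The fetal gamma subunit CHRNG was expressed in RH4 (36.6, 48.4 and 63.7 CPM), and the adult epsilon subunit CHRNE had 4 counts there. The gene higher in PSN1 was AGRN, agrin, a nerve and epithelial basement membrane protein (44.2, 81.1 and 103 CPM against 26.4, 30.7 and 51.8; 1.19 ± 0.15).

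The promoters of 3 of these genes are printed because they hold E-boxes of the form that myogenic factors prefer, CAGCTG, in capitals. They are RefSeq windows of 300 bases on GRCh38.p14, 250 before the start and 50 after it, read 5′ to 3′ on the gene's strand. CHRNA1 lies at chr2:174764423-174764722 on the minus strand, with its E-box beginning 75 bases before the start. CAV3, the muscle caveolin (85.8, 112 and 140.2 CPM in RH4, 1 count in PSN1), lies at chr3:8733552-8733851 on the plus strand, its E-box also 75 bases before the start. KLHL41, a sarcomere assembly protein (38.4, 43.5 and 56 CPM in RH4, 2 counts in PSN1), lies at chr2:169509452-169509751 on the plus strand and holds an E-box at 128 bases and a MEF2-type motif (CTA and TAG with any 4 bases between them), also in capitals, at 63 bases before the start.
CHRNA1: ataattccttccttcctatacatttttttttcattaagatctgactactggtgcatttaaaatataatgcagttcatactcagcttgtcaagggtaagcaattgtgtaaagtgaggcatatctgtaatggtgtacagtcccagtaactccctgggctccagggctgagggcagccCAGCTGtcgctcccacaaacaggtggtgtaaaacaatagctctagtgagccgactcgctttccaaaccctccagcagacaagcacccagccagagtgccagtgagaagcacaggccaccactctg
CAV3: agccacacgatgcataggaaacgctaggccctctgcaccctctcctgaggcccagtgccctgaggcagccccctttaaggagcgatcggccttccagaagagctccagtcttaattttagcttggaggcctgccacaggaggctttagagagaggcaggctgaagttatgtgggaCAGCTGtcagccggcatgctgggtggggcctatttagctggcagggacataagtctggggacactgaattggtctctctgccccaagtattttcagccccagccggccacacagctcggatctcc
KLHL41: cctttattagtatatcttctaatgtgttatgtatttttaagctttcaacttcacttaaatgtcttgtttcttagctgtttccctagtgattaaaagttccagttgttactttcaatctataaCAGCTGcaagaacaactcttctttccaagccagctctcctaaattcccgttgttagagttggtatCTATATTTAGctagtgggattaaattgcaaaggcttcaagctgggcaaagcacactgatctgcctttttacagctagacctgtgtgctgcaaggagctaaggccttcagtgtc
Searched on both strands in the 9597 tested genes with such a window, CAGCTG was in 23.5% of promoters of genes higher in RH4 beyond 4-fold (149 of 635), in 17.7% of those higher in PSN1 (137 of 773) and in 16.8% of all. The MEF2-type motif was in 3.94%, 1.29% and 2.02%. The looser E-box CANNTG, which includes CAGCTG, was in 65%, 68.8% and 59.6%. Most promoters of the 3 muscle lists lacked CAGCTG. It was in 2 of 8 for myogenic regulators, 3 of 8 for sarcomere genes and 4 of 11 for the receptor and excitation list. These are descriptions of sequence, with no test, and binding was not measured.

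Genes linked to PAX3-FOXO1 were on the RH4 side. Of 25, 16 were tested, 15 were higher in RH4, 14 of them beyond 4-fold, and 1 (PODXL2) was higher in PSN1. PAX3 read 45.1, 58.3 and 80.5 CPM in RH4 and was at 0 in PSN1, at least 420-fold lower. FOXO1, the other partner, read 11.6, 17.1 and 23.3 CPM in RH4 and 0, 0.563 and 1.4 in PSN1 (-4.68 ± 0.38). Gene-level counts do not separate the fusion transcript from either parent gene. FGFR4, a receptor tyrosine kinase that the fusion is known to activate, read 422, 446 and 489 CPM in RH4 and 0, 1.28 and 2.52 in PSN1 (-8.68 ± 0.23, adjusted p = 7.75e-20). ALK (20.9, 37.4 and 51.6 CPM) and NOS1 (21.7, 30.2 and 38.3 CPM) were at 0 in PSN1. The growth factor IGF2 was expressed in both, at 51, 80.8 and 126 CPM in PSN1 and 2023, 2640 and 3088 in RH4 (-4.98 ± 0.17). ASS1, an arginine synthesis enzyme, read 41, 61.3 and 75 CPM in PSN1 and 1330, 1426 and 1638 in RH4 (-4.59 ± 0.1).

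**Figure D2:**
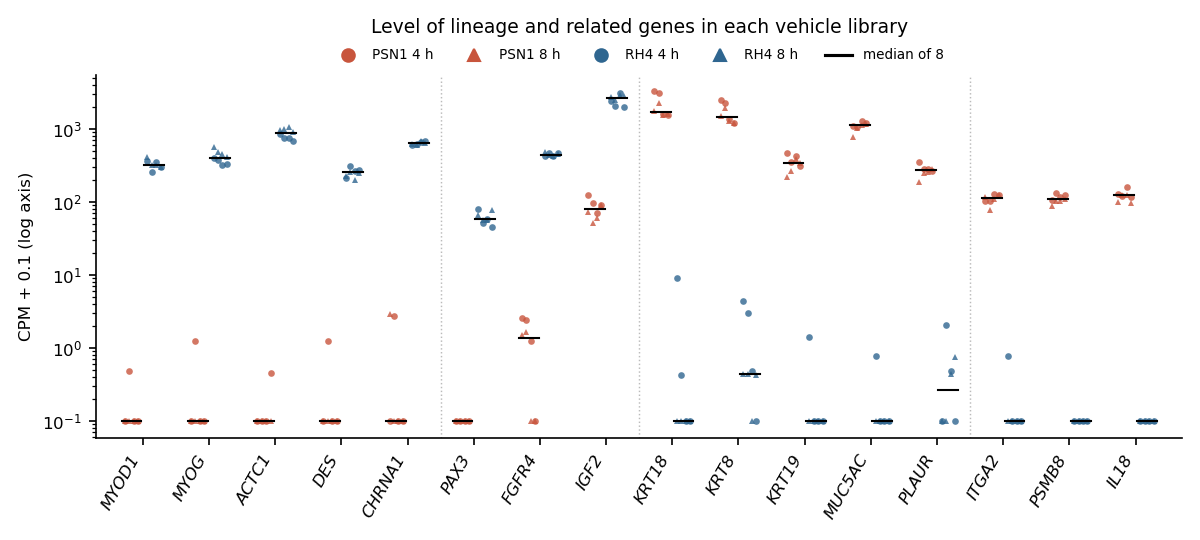
CPM plus 0.1 on a log axis for 16 genes in each library (circles 4 h, triangles 8 h; black bars are medians of 8). The muscle and fusion-linked genes from MYOD1 to IGF2 are higher in every RH4 library than in any PSN1 library, and the genes from KRT18 to IL18 are higher in every PSN1 library than in any RH4 library.

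PSN1 carried simple epithelial keratins but only part of the epithelial adhesion program. Among 16 keratins 7 were tested, 6 of them higher in PSN1 and 1 higher in RH4, each beyond 4-fold. KRT18 read 1540, 1678 and 3284 CPM in PSN1 and 0, 0 and 9.02 in RH4 (10.66 ± 0.55, adjusted p = 3.22e-10), and its partner KRT8 read 1207, 1434 and 2514 against 0, 0.337 and 4.34 (10.43 ± 0.39). RH4 at 4 h, replicate 1, held 27 of the 28 KRT18 counts and 13 of the 26 KRT8 counts of RH4, and without it the differences were 14.29 and 11.11. The annotated spans of these neighbors on chromosome 12 overlap on opposite strands, and the libraries carry no strand information. KRT19 (219, 346 and 465 CPM) and KRT7 (325, 375 and 763 CPM), keratins of ductal epithelium, had 4 and 21 counts in RH4, the 4 of KRT19 again all in that library. KRT17, a keratin of basal and stressed epithelium, ran the other way, with 17.6, 39.7 and 100.2 CPM in RH4 and 0 in PSN1 (adjusted p = 0.000618).

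Of 34 genes of epithelial junctions and polarity, 16 passed the filter, 13 were higher in PSN1, 12 of them beyond 4-fold, and 2 were higher in RH4. The tight junction gene CLDN4 read 70.2, 109.5 and 153 CPM in PSN1 and 0, 0.833 and 3.12 in RH4 (6.68 ± 0.28). CLDN1 (11.9, 27.5 and 67.1 CPM), EPCAM (4.69, 10.1 and 16.9 CPM) and the desmosomal DSG2 (1.26, 3.45 and 6.57 CPM) were at 0 in RH4. The genes that define tight epithelium were largely missing from PSN1 as well: the E-cadherin gene CDH1 had 7 counts over 8 PSN1 libraries, CLDN7 had 12 and CLDN3 had 56, and the epithelial regulators ESRP1, GRHL2 and OVOL1 had 0. The splicing regulator ESRP2 was present (12.5, 14.7 and 21.1 CPM in PSN1; 5.64 ± 0.43). Occludin, OCLN, was higher in RH4, at 18.9, 23 and 28.7 CPM against 1.75, 3.63 and 6.25 (-2.58 ± 0.23).

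Pancreatic identity was likewise partial in PSN1. Only 5 of 24 pancreatic and endodermal transcription factors passed the filter, with 4 higher in PSN1. ELF3, GATA6 and SOX9, factors of ductal and foregut epithelium, read medians of 15.3, 12.2 and 17.3 CPM in PSN1 and 0, 0.195 and 2.31 in RH4, without overlap. PDX1, the pancreas-defining homeobox gene, had 0 counts in PSN1, PTF1A had 0, FOXA1 had 6, FOXA2 had 13 and HNF4A had 84. The labelled pancreatic origin was therefore checked against keratins, mucins and a few foregut factors, which were present, while PDX1 and PTF1A were at 0.

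Among 33 secreted and surface genes of pancreatic carcinoma 21 were tested, 19 were higher in PSN1, 16 of them beyond 4-fold, and 1 was higher in RH4, with a median of 6 (4.99 with absent genes at their bound). The gel-forming mucin MUC5AC read 777, 1120 and 1273 CPM in PSN1 and had 2 counts in RH4, a ratio of 12350 (95% counting interval 3419 to 102000). Both counts were in RH4 at 4 h, replicate 1, without which MUC5AC was at least 7128-fold lower in RH4. The single RH4 count of the trefoil gene TFF1 was in the same library. The neighboring paralog MUC5B read 16, 58.9 and 79.7 CPM in PSN1, lower in replicates 1 and 2 than in replicates 3 and 4 at both times, and had 1 count in RH4. The trefoil peptides TFF1 (41.1, 48.5 and 94.4 CPM) and TFF2 (17.9, 26.4 and 41.1 CPM) and the calcium-binding S100P (4.69, 10.5 and 21 CPM) were at 0 or 1 count in RH4. S100A4 read 648, 1090 and 1590 CPM in PSN1 and 0, 0.842 and 1.95 in RH4 (10.12 ± 0.32). PLAUR, the receptor that concentrates the protease urokinase on the cell surface, read 189, 273 and 352 CPM in PSN1 and had 10 counts in RH4 (9.08 ± 0.25, and 9.98 without RH4 at 4 h, replicate 2, which held 6 of the 10), while the urokinase gene PLAU was higher in RH4 (-0.83 ± 0.14). S100A2 did not pass the test (0.06 ± 0.16, adjusted p = 0.742), with 102, 169.8 and 270.3 CPM in PSN1 and 122, 175 and 263 in RH4. The defining antigens CEACAM5, CEACAM6 and MSLN were at 0 in PSN1, and MUC1 had 14 counts.

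A motif search in the same promoter windows is shown for PLAUR and CLDN4, whose windows hold TGANTCA, the sequence read by AP-1 factors such as FOSL1, in capitals. CLDN4 lies at chr7:73830746-73831045 on the plus strand, with matches 242 and 161 bases before the start, and PLAUR at chr19:43670120-43670419 on the minus strand, with a match 186 bases before it. The CLDN4 window also holds the E-box CAGCTG, left in small letters, although this gene was higher in PSN1.
CLDN4: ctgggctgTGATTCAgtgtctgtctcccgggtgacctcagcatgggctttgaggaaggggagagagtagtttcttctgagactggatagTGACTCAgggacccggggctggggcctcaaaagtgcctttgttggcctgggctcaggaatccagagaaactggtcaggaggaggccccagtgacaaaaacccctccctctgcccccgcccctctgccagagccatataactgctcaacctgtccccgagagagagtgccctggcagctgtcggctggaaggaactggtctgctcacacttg
PLAUR: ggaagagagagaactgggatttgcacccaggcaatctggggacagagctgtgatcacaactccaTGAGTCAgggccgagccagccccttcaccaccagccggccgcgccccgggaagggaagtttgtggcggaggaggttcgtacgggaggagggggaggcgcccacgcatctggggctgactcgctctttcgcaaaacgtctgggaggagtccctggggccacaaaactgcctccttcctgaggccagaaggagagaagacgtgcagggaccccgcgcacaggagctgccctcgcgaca
TGANTCA was in 10.1% of promoters of genes higher in PSN1 beyond 4-fold (78 of 773), in 4.41% of those higher in RH4 and in 4.32% of all. FOSL1 itself read 136, 149 and 307 CPM in PSN1 and 0, 1.09 and 2.93 in RH4 (7.09 ± 0.27). The MYC-type E-box CACGTG was in 8.67%, 7.09% and 10.3%, and the grainyhead motif AACCGGTT in 0.129%, 0% and 0.146%. No match says only that these letters are not in the window, and binding was not measured.

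Mesenchymal genes split between the lines. Of 25, 16 were tested, 8 were higher in PSN1 and 6 in RH4, and the median of 0.12 became -0.43 with spike-in scaling and -0.23 on log2 TPM. The intermediate filament gene VIM was abundant in both (813, 943 and 1096 CPM in PSN1, 732, 782 and 929 in RH4; 0.26 ± 0.07, but -0.34 with spike-in scaling and -0.09 on log2 TPM). The hyaluronan receptor CD44 was higher in PSN1 (861, 998 and 1117 CPM against 13.5, 18.1 and 29.4; 5.6 ± 0.14), as was the matrix protein TGFBI (4.97 ± 0.27). The transition factors went the other way: SNAI2 read 0.371, 3.1 and 12.2 CPM in PSN1 and 66.8, 79.8 and 86.1 in RH4 (-4.35 ± 0.3), and SNAI1, ZEB1 and ZEB2 were also higher in RH4 (-2.07, -2.01 and -2.17). SPARC, a matrix protein, read 15.9, 34.8 and 55.4 CPM in PSN1 and 594, 650.2 and 756 in RH4 (-4.3 ± 0.18).

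Of 18 integrins 13 were tested, with 7 higher in PSN1 and 2 in RH4, 69.2% called against 65.1% of all genes. Their median of 0.75 became 0.09 with spike-in scaling and 0.13 on log2 TPM. The collagen receptor ITGA2 read 77.1, 113 and 130.3 CPM in PSN1 and had 2 counts in RH4, both at 4 h, replicate 1, and the laminin receptor ITGA3 read 68.6, 99.5 and 119 CPM against a highest value of 2.34. ITGA4, an integrin of muscle and blood cells, read 18.8, 27.7 and 39.3 CPM in RH4 and 0 in PSN1. Of 28 laminins and collagens 21 were tested, with 14 higher in PSN1, 8 beyond 4-fold, and 6 higher in RH4, all 6 beyond 4-fold. COL7A1 of anchoring fibrils (185, 292 and 440 CPM) and COL6A1 (155, 227 and 281 CPM) were on the PSN1 side. The basement membrane pair COL4A1 and COL4A2 (medians of 54.2 and 112 CPM in RH4, 0 and 0.175 in PSN1) and fibrillar COL3A1 (235, 265 and 366 CPM in RH4, 3.77, 11.5 and 22.7 in PSN1) were on the RH4 side. COL6A2, whose protein pairs with that of COL6A1, was higher in RH4 (-5.81 ± 0.35), opposite to COL6A1 (8.69 ± 0.31, and 9.5 without RH4 at 8 h, replicate 2).

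**Figure D3:**
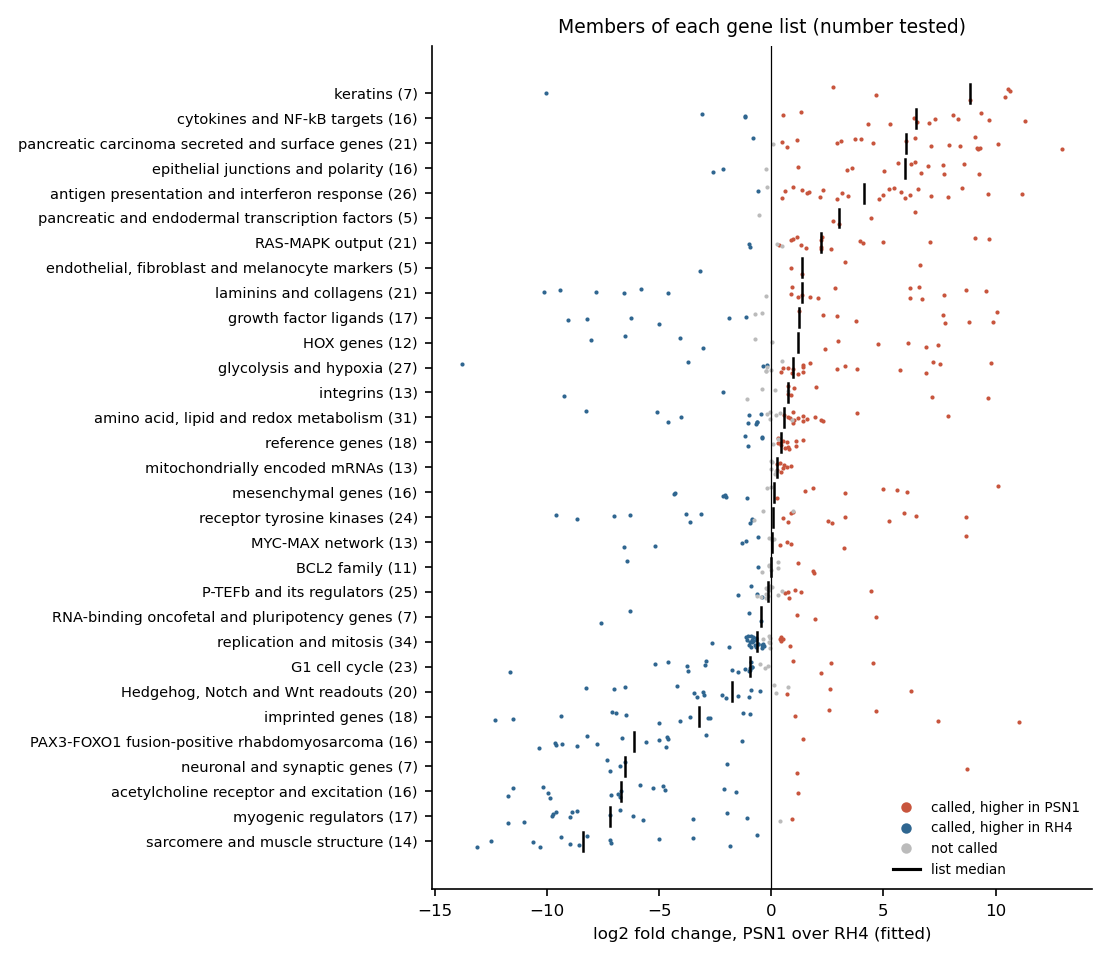
Fitted log2 fold changes of PSN1 over RH4 for the tested members of each gene list with at least 5 tested members (number in brackets), with a black bar at the list median. The 4 muscle and fusion lists lie at medians of -6.11 to -8.41 and the keratin list at 8.86, while the P-TEFb, MYC-MAX and BCL2 lists lie near 0 with the TMM scaling shown.

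Receptor tyrosine kinases were divided about evenly, with 11 of 24 tested (of 34) higher in PSN1 and 10 in RH4 (median 0.09, but -0.52 with spike-in scaling and -0.15 on log2 TPM). Of the 24, 87.5% were called, against 65.1% of all genes, but 4 were at 0 counts in 1 line and 2 at 1 to 3. The insulin receptor INSR was found in PSN1 (47.4, 51.8 and 77.7 CPM), and RH4 had 2 counts, a ratio of 616 (95% counting interval 170.3 to 5097). EGFR read 50.6, 62.3 and 72.5 CPM in PSN1 and 4.36, 8.52 and 16.9 in RH4 (2.7 ± 0.18), and AXL was higher in PSN1 (2.53 ± 0.3). Besides FGFR4 and ALK, the collagen receptor DDR1 (-3.15 ± 0.27) and ERBB3 (-3.62 ± 0.43) were higher in RH4, and IGF1R, a receptor for IGF2, differed little (0.53 ± 0.14, and -0.06 with spike-in scaling). Of 34 growth factor ligands 17 were tested, 9 higher in PSN1, 6 of them beyond 4-fold, and 6 higher in RH4, 4 of them beyond 4-fold. Of the 17, 88.2% were called, against the same 65.1%, but 7 were at 0 counts in 1 line. For such genes in both lists the filter fixed the direction, so these shares are descriptions only. The EGFR ligands EREG (32.8, 44.9 and 55 CPM), AREG (17.6, 21.9 and 23.8 CPM) and TGFA (4.57, 9.92 and 16.6 CPM) and the activin subunit INHBA (34.8, 50.6 and 64.8 CPM) were found in PSN1 and at 0 in RH4. FGF7 and FGF8 (medians of 22 and 12.9 CPM in RH4) were at 0 in PSN1.

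Targets and feedback regulators of RAS-MAPK signaling were mostly higher in PSN1, 17 of 21 tested (of 23), 7 of them beyond 4-fold, with 2 higher in RH4 and a median of 2.2. The ERK phosphatase DUSP6 read 183, 224 and 274 CPM in PSN1 and 27, 34.6 and 47.5 in RH4 (2.68 ± 0.12). The inhibitor SPRY4 was also higher (2.22 ± 0.22), as were the early response genes EGR1 (4.98 ± 0.24) and IER3 (3.96 ± 0.24) and the cytokine LIF (46.6, 77.2 and 106 CPM against 1 count). ETV5 and SPRY2, also outputs of this cascade, were higher in RH4 (-1 ± 0.12 and -0.97 ± 0.19).

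Inflammatory genes were mostly higher in PSN1, and several were at or near 0 in RH4. The summed level of the tested genes was 189.5 to 272.7 TPM in PSN1 and 28.67 to 43.01 TPM in RH4. Of 26 cytokines and NF-kB targets all 16 tested differed, 13 higher in PSN1, 11 beyond 4-fold, and 3 higher in RH4, with a median of 6.43 (5.44 with absent genes at their bound). IL18 read 96.8, 123 and 160 CPM in PSN1 and 0 in every RH4 library, at least 901-fold lower. IL1B (38, 68.8 and 95.6 CPM in PSN1) and the monocyte attractant CCL2 (28.2, 45 and 64.6 CPM) had 10 and 5 counts in RH4. The adhesion molecule ICAM1 (20.2, 30.4 and 40.1 CPM) was at 0 in RH4. The feedback inhibitor TNFAIP3, which restrains NF-kB signaling, was the exception of largest size, with 0.471, 3.57 and 5.21 CPM in PSN1 and 20.5, 27.2 and 39.1 in RH4 (-3.09 ± 0.27).

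Antigen presentation and interferon response genes were higher in PSN1 in 24 of 26 tested (of 29), 16 beyond 4-fold, with 1 higher in RH4 and a median of 4.12. The immunoproteasome subunits PSMB8 (87.1, 109 and 134 CPM) and PSMB9 (28.6, 37.4 and 49.1 CPM) were at 0 in RH4, at least 830.1 and 284-fold lower. The peptide transporter TAP1 read 36.2, 41.4 and 56.8 CPM in PSN1 and had 6 counts in RH4. PSMB9 overlaps both of these neighbors on chromosome 6 on the opposite strand, so some counts could be shared. The class I genes HLA-B (4.79 ± 0.2) and HLA-C (5.97 ± 0.24) and their light chain B2M (1209, 1395 and 1551 CPM against 265, 305 and 368; 2.16 ± 0.08) were higher in PSN1. HLA genes are polymorphic paralogs, so their estimates may depend on how reads were shared. NLRC5, the transactivator of class I genes, read 26.8, 36.6 and 46.5 CPM in PSN1 and 0, 0.163 and 2.01 in RH4. IFI6 was the member higher in RH4 (-0.61 ± 0.22).

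Developmental pathways leaned to RH4. Of 20 tested readouts of Hedgehog, Notch and Wnt signaling (of 28), 14 were higher in RH4, 8 beyond 4-fold, and 3 higher in PSN1, with a median of -1.74. The Notch target HEYL read 48, 58.9 and 74.5 CPM in RH4 and had 3 counts in PSN1, and SMO, CDON, DLL1 and NOTCH3 were higher in RH4 by 3.01 to 3.44 on the log2 scale. The Notch ligand JAG1 was higher in PSN1 (36.3, 50.2 and 102 CPM against 0, 0.662 and 1.34; 6.21 ± 0.32). Among 39 HOX genes 12 were tested, 6 higher in PSN1, led by HOXB6 (8.85, 11.1 and 19.7 CPM, 3 counts in RH4), and 4 higher in RH4, led by HOXB13 (7.49, 12.1 and 19.2 CPM, 0 in PSN1) and HOXA7.

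Imprinted genes, which are expressed from one parental allele and include growth regulators of the embryo, all differed. Of 18 tested (of 22), 13 were higher in RH4, 11 beyond 4-fold, and 5 in PSN1, 3 beyond 4-fold. H19 and IGF2, neighbors on chromosome 11 that share enhancers and are read from opposite parental alleles, went opposite ways: H19 read 379, 540 and 748 CPM in PSN1 and had 5 counts in RH4 (11.04 ± 0.33), whereas IGF2 was higher in RH4. All 5 H19 counts were in RH4 at 8 h, replicate 2, without which H19 was at least 3774-fold lower in RH4. MEG3, a noncoding RNA of chromosome 14, read 429, 465 and 632 CPM in RH4 and had 1 count in PSN1, a ratio of 10020 (95% counting interval 1799 to 396000). Without PSN1 at 8 h, replicate 2, which held that count, MEG3 was at least 3022-fold lower in PSN1. PEG3 (118, 126 and 177 CPM in RH4) was at 0 in PSN1, at least 914.5-fold lower, and PLAGL1 was at least 209-fold lower. MEST (35.8, 74.1 and 127 CPM in PSN1, 747, 950.1 and 1125 in RH4) and KCNQ1OT1 (41.5, 48.3 and 52.7 against 732, 784 and 909) were expressed in both. PHLDA2 (116, 219 and 255 CPM against 0.336, 1 and 1.95; 7.44 ± 0.2) and DIRAS3 (22.1, 34.4 and 47.1 CPM against 0, 0.797 and 4.34; 4.69 ± 0.37) were the other members higher in PSN1 beyond 4-fold. Alleles were not measured. Among the oncofetal RNA regulators, the IGF2 mRNA-binding protein gene IGF2BP1 read 82, 109 and 116 CPM in RH4 and 0, 0.611 and 1.04 in PSN1, and the chromatin protein gene HMGA1 read 275, 534 and 596 CPM in PSN1 and 14.8, 18.6 and 26.8 in RH4 (4.69 ± 0.15).

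The genes closest to the study's subject, the CDK9 kinase and the MYC network, differed in their MYC family members and little in the kinase. MYC (chromosome 8, 127735434 to 127741434, plus strand) read 227, 316 and 362 CPM in PSN1 and 22.6, 32.2 and 48.6 in RH4 (3.24 ± 0.12, adjusted p = 1.54e-19). MYCN, its paralog of nervous system and muscle tumors, read 1.63, 5.01 and 5.86 CPM in RH4 and was at 0 in PSN1, at least 29.8-fold lower, and MYCL was also higher in RH4 (-5.17 ± 0.55, and -6.59 without PSN1 at 8 h, replicate 4). Per transcript length, MYC had a mean of 96.1 TPM in PSN1, and in RH4 MYC had 13.8 TPM and MYCN 1.7 TPM. Their partner MAX differed little (0.4 ± 0.11, and -0.24 with spike-in scaling). Over the 13 network genes 5 were higher in PSN1 and 5 in RH4, and the median of 0.05 became -0.55 with spike-in scaling and -0.19 on log2 TPM. Of the 13, 76.9% were called, against 65.1% of all genes.

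CDK9, which with a T-type cyclin forms P-TEFb and releases paused RNA polymerase II, read 5.45, 8.6 and 16.2 CPM in PSN1 and 5.7, 11.3 and 17.5 in RH4 and was not called (-0.22 ± 0.27, adjusted p = 0.502), although spike-in scaling gave -0.86 (adjusted p = 0.00804). CCNT1, the cyclin, was higher in PSN1 (12.6, 16.6 and 31.1 CPM against 7.38, 11.3 and 14.3; 0.78 ± 0.21, adjusted p = 0.00179), a call lost with spike-in scaling (0.16, adjusted p = 0.584) and on log2 TPM (0.23, adjusted p = 0.112). HEXIM1, the inhibitor that holds P-TEFb in its inactive store, was not called (0.3 ± 0.25, adjusted p = 0.293). Of 25 tested P-TEFb genes and regulators (of 27), 6 were higher in PSN1, 4 in RH4 and 15 were not called, 40% called against 65.1% of all genes. Their median of -0.14 became -0.74 with spike-in scaling and -0.41 on log2 TPM. The exception in size was the elongation factor ELL2, with 19.7, 24.6 and 45.6 CPM in PSN1 and 0.661, 1.18 and 2.93 in RH4 (4.43 ± 0.28). The largest subunit of RNA polymerase II, POLR2A, was not called (-0.07 ± 0.11, adjusted p = 0.598).

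The survival gene MCL1 read 34.5, 37.4 and 47.5 CPM in PSN1 and 7.4, 9.84 and 15.8 in RH4 (1.85 ± 0.16, adjusted p = 3.55e-11), and its relative BCL2L1 was also higher in PSN1 (1.9 ± 0.18). Of 11 tested BCL2 family genes (of 17), 3 were higher in PSN1, 2 in RH4 and 6 were not called, and without PSN1 at 8 h, replicate 1, 5 were higher in PSN1. With all libraries 45.5% were called, against 65.1% of all genes. The family's median of -0.02 became -0.7 with spike-in scaling and -0.05 on log2 TPM. The death-promoting BMF read 7.79, 12.4 and 18.9 CPM in RH4 and had 2 counts in PSN1, while BAX was not called (-0.02 ± 0.2).

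**Figure D4:**
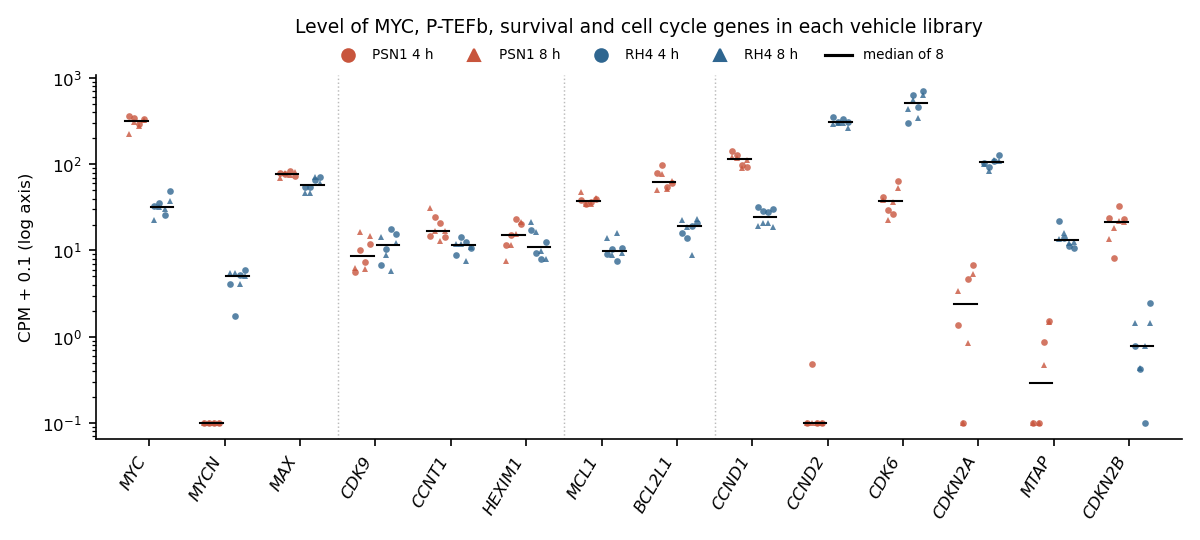
CPM plus 0.1 on a log axis for 14 genes of the MYC network, P-TEFb, survival and the cell cycle in each library (circles 4 h, triangles 8 h; black bars are medians of 8). MYC, MCL1, BCL2L1 and CCND1 are higher in every PSN1 library, CCND2, CDK6, CDKN2A and MTAP are higher in every RH4 library, and the CDK9, CCNT1 and HEXIM1 points overlap.

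Control of G1 differed gene by gene, with 16 of 23 tested genes (of 25) higher in RH4, 7 beyond 4-fold, and 4 in PSN1. Of the 23, 87% were called, against 65.1% of all genes. The D cyclins were exchanged: CCND1 read 89.9, 115 and 143 CPM in PSN1 and 18.8, 24.3 and 32.1 in RH4 (2.21 ± 0.13), whereas CCND2 read 265, 307.5 and 355 CPM in RH4 and had 1 count in PSN1. Their kinase partner CDK6 read 22.4, 37.1 and 63.2 CPM in PSN1 and 303, 512 and 704 in RH4 (-3.71 ± 0.25), and CDK4 was higher in RH4 to a smaller degree (-1 ± 0.09). At the 9p21 tumor suppressor locus, CDKN2A (0, 2.28 and 6.67 CPM in PSN1, 84.1, 106 and 127 in RH4) and its neighbor MTAP (0, 0.186 and 1.4 against 10.6, 13 and 22) were near 0 in PSN1, while the adjacent CDKN2B was higher there (8.04, 21.5 and 32.4 CPM against 0, 0.669 and 2.34). The p53 target CDKN1A read 1.41, 7.53 and 9.9 CPM in PSN1 and 38.3, 50.1 and 77.9 in RH4 (-2.95 ± 0.22). Replication and mitosis genes differed by less: 23 of 34 tested were higher in RH4 and 5 in PSN1, 1 beyond 4-fold, with a median of -0.64. Of the 34, 82.4% were called and 2.94% beyond 4-fold, against 65.1% and 16% of all genes. TYMS, the thymidylate enzyme, was the largest (46.7, 75.6 and 90.4 CPM against 371, 443 and 473; -2.62 ± 0.11), MKI67 was higher in RH4 (-0.86 ± 0.13), and PCNA higher in PSN1 (0.85 ± 0.09).

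The lactate dehydrogenase subunits differed unequally. LDHB read 597, 656 and 735 CPM in RH4 and 0 in all 8 PSN1 libraries, at least 4403-fold lower, while LDHA was found in both (1073, 1467 and 1961 CPM in PSN1, 426, 568 and 619 in RH4; 1.41 ± 0.11). Of 27 tested glycolysis and hypoxia genes (of 28), 18 were higher in PSN1, 8 beyond 4-fold, and 4 in RH4, 81.5% called against 65.1% of all genes. Their median of 0.96 became 0.35 with spike-in scaling and 0.58 on log2 TPM. The hypoxia-responsive carbonic anhydrase CA9 (25.9, 41.4 and 69.2 CPM in PSN1) was at 0 in RH4, the lactate exporter SLC16A3 (29.7, 38.9 and 63.6 CPM) had 4 counts there, and the phosphofructokinase PFKP was higher in PSN1 (5.73 ± 0.41). BNIP3, also a hypoxia target, was higher in RH4 (-3.73 ± 0.21). Among 31 tested genes of amino acid, lipid and redox metabolism (of 35), 15 were higher in PSN1 and 10 in RH4, 80.6% called against 65.1% of all genes. Their median of 0.58 became 0.007 with spike-in scaling and 0.1 on log2 TPM. Glutamine synthetase, GLUL, read 1.11, 2.08 and 3.81 CPM in PSN1 and 60, 69.9 and 88.2 in RH4 (-5.08 ± 0.19), and the creatine synthesis enzyme GATM had 1 count in PSN1. The amino acid transporter SLC7A5 (2.32 ± 0.24) and the antioxidant enzyme NQO1 (2.24 ± 0.11) were higher in PSN1.

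Genes often used as references were not equal between the lines. Of 18, 12 were higher in PSN1, 4 in RH4 and 2 were not called, none beyond 4-fold, and the median of 0.42 became -0.22 with spike-in scaling. GAPDH read 4033, 5143 and 5912 CPM in PSN1 and 2825, 3019 and 3344 in RH4 (0.75 ± 0.08, and 0.14 with spike-in scaling), ACTB was similar (0.8 ± 0.08), and TUBB was higher in RH4 (-1.18 ± 0.09). PPIB did not pass the test (0.09 ± 0.08, adjusted p = 0.38). The 13 mitochondrially encoded mRNAs took 7.53% to 10.1% of gene counts in PSN1 (median 8.56%) and 7.09% to 8.44% in RH4 (median 8.14%), a log2 difference of 0.14 (two-sided exact permutation within time, p = 0.0351; p = 0.171 at 4 h and 0.143 at 8 h alone). The call was lost without any 1 of 6 libraries (PSN1 at 4 h, replicates 2 and 3, and at 8 h, replicate 1, and RH4 at 4 h, replicate 1, and at 8 h, replicates 1 and 2), with p from 0.05061 to 0.07755. It was also lost with replicate number as a block (exact permutation p = 0.117). 8 of the 13 were called, all higher in PSN1, 61.5% against 65.1% of all genes, and their median of 0.26 became -0.38 with spike-in scaling and -0.11 on log2 TPM.

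Along the genome the differences were not evenly placed. Medians per chromosome ran from -0.43 on chromosome 18 to 0.57 on the X chromosome, with 0.45 on chromosome 5. In windows of 20 neighboring tested genes (1216 windows, overlapping by 10), 90% of medians lay between -0.86 and 1.04. The windows named here were chosen after their values were seen. The highest, at 6.62, was in the class II region of chromosome 6 (32517343 to 33276510), where the antigen-presenting genes HLA-DRA (91.3, 110.5 and 128 CPM in PSN1, 1 count in RH4, in the adjoining window), HLA-DRB1, HLA-DMA and HLA-DPA1 lie. BRD2, between HLA-DMA and HLA-DPA1, was not called (0.03 ± 0.11, adjusted p = 0.829). The next separate region, at 2.71, was on chromosome 22 (35380361 to 37519542), with the apolipoprotein L genes and RAC2 (37.7, 81.1 and 123 CPM in PSN1, 1 count in RH4). This window was mixed, with 12 of 20 genes higher in PSN1 and 5 higher in RH4. The MYC region of chromosome 8 (124474738 to 130443660) had a median of 2.2: the noncoding PVT1 beside MYC read 450.1, 511 and 610 CPM in PSN1 and 28, 36.7 and 44.8 in RH4 (3.84 ± 0.11), and CASC11 (73.9, 89.4 and 151 CPM) was at 0 in RH4. A window on chromosome 19 (6413348 to 7943920) that holds INSR had a median of 2, with 17 of 20 genes higher in PSN1.

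The lowest window, at -4.95, was the protocadherin cluster of chromosome 5 (141094578 to 141512979), where all 20 tested genes were higher in RH4. Protocadherins are neuronal recognition molecules, and PCDHB5 read 17.6, 23 and 30.1 CPM in RH4 and 0 in PSN1. The gamma protocadherins share their last exons, so counts may be spread over members, and the non-cluster gene TAF7 within the window was also higher in RH4 (-1.19 ± 0.12). Next were KRAB zinc finger clusters on chromosome 19, at -3.22 (20167228 to 23945159, 16 of 20 genes higher in RH4) and -2.87 (36714383 to 37719790, 20 of 20). ZNF43 (6.19, 10.5 and 16.7 CPM in RH4) was at 0 in PSN1, and ZNF585A read 2.52, 5.05 and 12 CPM in PSN1 and 21.7, 32.5 and 38.2 in RH4 (-2.54 ± 0.23). These are paralogs, and counts between close copies are uncertain. Copy number and methylation were not analysed here.

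**Figure D5:**
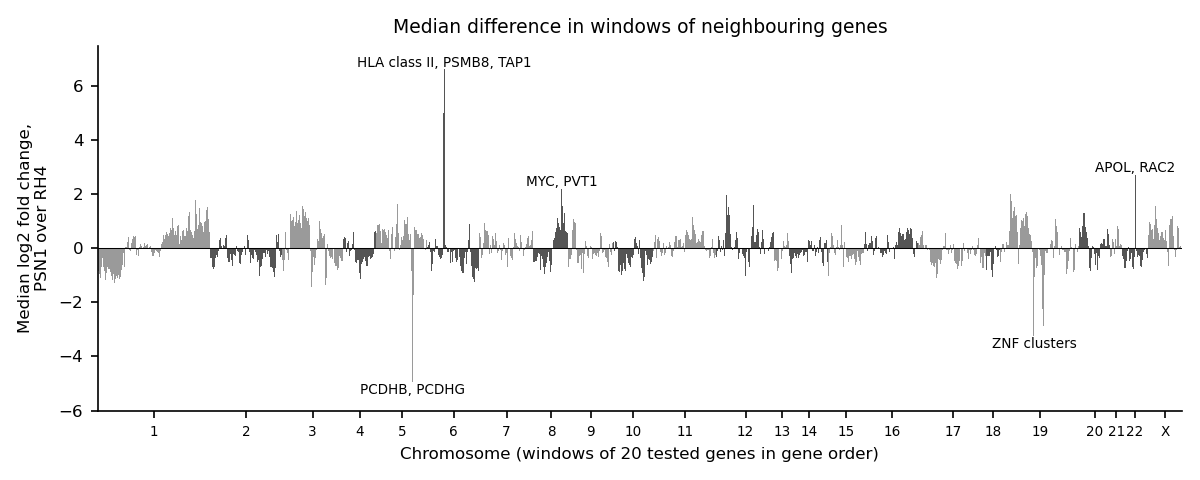
Bars give the median fitted log2 fold change of PSN1 over RH4 in 1216 overlapping windows of 20 neighboring tested genes, in gene order and shaded by chromosome. The labelled extremes are at 6.62 (HLA class II), 2.71 (APOL and RAC2) and 2.2 (MYC and PVT1), and at -4.95 (protocadherins) and -3.22 (zinc fingers).

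Time in vehicle had no detectable effect in the main test. That test did not pair the same-numbered libraries of a line, which tended to resemble each other, so a small effect could be missed. Between 4 h and 8 h edgeR called 0 genes in PSN1 (0%; 661 genes, 5.13%, at an unadjusted p under 0.05), 0 in RH4 (411 genes, 3.19%), and 0 for a different time effect in the 2 lines (581 genes, 4.5%). DESeq2 called 3, 3 and 1, and limma on log2 TPM called 0, 2 and 0. The RH4 pair from limma were GLRX, with 1 to 4 counts at 4 h and 0 at 8 h, and RPL10P6, with 0 at 4 h and 1 to 3 at 8 h. In the DESeq2 calls, CDC42EP1 in RH4 had 12 to 25 counts at 4 h and 4 to 8 at 8 h. The other DESeq2 calls (GTF2IP4, H2AC19, RP9P, NPIPB12, EIF3CL and SORD2P) were members of near-identical gene families, each with 0 counts in at least 5 of the 16 libraries.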

How the data were processed

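RNA of 16 DMSO libraries was made into libraries by SMART-seq2 in reduced volume and Nextera XT tagmentation, which keeps neither strand nor molecular identifiers, from 1 ng of total RNA with about 30 pg of ERCC and SIRV spike-in mix per lysate, per the labels' protocols. The authors deposited estimated counts per gene and log2 TPM values with a pseudocount of 1. Salmon and hg38 are named per the submitters' processing notes, and the version and annotation are not given in the sources used here. Estimated counts were rounded to whole numbers. In the 2 count tables, 40 columns of other samples were left unread. Of 62856 entries, 99 spike-in, 47 _PAR_Y and 509 chromosome Y rows were left out. Symbols and positions came from GENCODE 29 (57765 of 62201 kept rows had a position).

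The main test was edgeR 4.0.16 (robust quasi-likelihood, TMM, filterByExpr with a minimum count of 10, time and line as terms), with glmTreat at a log2 size of 2 for the 4-fold rule and Benjamini-Hochberg adjustment at 0.05 over 12897 genes. Genes below the filter held 0.745% of counts. On simulated data for PSN1 versus RH4 (12306 genes run) 77.6% of genes changed by 1 and 98% of those changed by 3 on the log2 scale were recovered, with 6 false calls, and the 4-fold rule called 0% of the former and 72.7% of the latter. Each simulated gene had its mean over both lines, and only 98 and 99 genes were changed. In the data 65.1% of genes were called, so these rates describe the simulated setting only. A gene at 0 counts in one line has a bound from a floor of 3 counts over 8 libraries. Genes with 1 to 3 counts have a ratio with a 95% counting interval, which covers counting error only. Library totals of 1670100 to 3080901 limit the precision of genes with few counts.

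The members and the 33 gene lists (791 distinct genes, 789 matched) were chosen with earlier results of these data known. Named genes were a fixed set (MYC, MYCN, CDK9, CCNT1, HEXIM1 and MCL1), up to 3 per list and direction with the largest difference among called genes with a mean of at least 10 CPM and no overlap, and up to 10 per direction by abundance among genes differing by at least 5 on the log2 scale, 142 in all. Other genes were named after their values were seen. Alternatives were RLE and spike-in scaling, no filter, DESeq2 1.42.0, limma 3.58.1 on the deposited log2 TPM, a replicate block, non-robust fitting, each time alone and each library left out. List counts without PSN1 at 8 h, replicate 1, or 4 h, replicate 2, and RH4 at 4 h, replicate 1 or 4, were added after seeing the data. A few items are not reported here.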

Additional observations from a re-analysis of the deposited data

Results flagged for a closer look

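Over 186 sets of 8 libraries of one line (the named genes and the library measures), 12 held a library farther from the other 7 than Dixon's test allows at the 95% level, where chance alone gives about 9.3. 5 of the 12 fell on PSN1 at 8 h, replicate 1: the share of its 10 most abundant genes was 27% (26.99%), HMGA1 read 275.3 CPM and NELFE 62.13 CPM, each the lowest, and JAG1 read 101.7 CPM and MCL1 47.54 CPM, each the highest. In PSN1 at 4 h, replicate 1, CLDN1 read 67.11 CPM and ITGB5 46.14 CPM, the highest of 8. HOXB6 was highest in PSN1 at 8 h, replicate 3, at 19.69 CPM. The spike-in share was highest in PSN1 at 4 h, replicate 4, at 17.56%. In RH4, MTAP was highest at 4 h, replicate 1, at 22.04 CPM, CPA5 was lowest at 8 h, replicate 1, at 266.1 CPM, and the gene count total was lowest at 4 h, replicate 4, at 1670100 (1.67e+06). Leaving out any of these libraries changed no call among the 142 named genes.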

How the results depend on the processing

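All 142 named genes kept their direction and call with RLE scaling, no filter, DESeq2, non-robust fitting and each of 16 libraries left out. With spike-in scaling 134 kept both, 5 lost their call, 1 gained a call and 2 changed direction. On log2 TPM 140 kept both, 1 lost its call and 1 changed direction. Spike-in scaling gave 2166 genes higher in PSN1 and 6547 higher in RH4. The 4-fold rule called 3430 (1921 and 1509) among 31824 genes with no filter and 759 (415 and 344) with limma on log2 TPM. Time called 14 genes in PSN1 and 14 in RH4 with no filter and 3 and 3 with DESeq2, and limma called 2 in RH4. The interaction gave 2 with spike-in scaling, 20 with no filter and 1 with DESeq2. With 1 library left out, PSN1 time and the interaction called 0 to 1 each. CDK9 was 0.03 (0.034) at 8 h alone. HEXIM1 was -0.29 with spike-in scaling, -0.04 (-0.0367) on log2 TPM and -0.01 (-0.00838) at 8 h alone, and MT-CO2 was -0.09 (-0.086) with spike-in scaling. List medians became, with spike-in scaling and on log2 TPM, -0.43 and -0.23 for mesenchymal genes, -0.52 and -0.15 for receptor tyrosine kinases, -0.55 (-0.545) and -0.19 for the MYC-MAX network and -0.38 and -0.11 for mitochondrial mRNAs, and -0.22 for reference genes with spike-in scaling. The spike-in share difference was 0.37 (0.366) at 4 h and 0.39 (0.394) at 8 h alone, neither past the threshold. The mitochondrial share difference was 0.09 (0.088) at 4 h and 0.20 (0.195) at 8 h alone, and 0.11 (0.110) to 0.17 (0.172) with 1 library left out, past 0.05 for 6 of 16, among them PSN1 at 8 h, replicate 1. The cause of these changes was not tested. With windows of 40 genes the extremes were -1.45 and 1.54.

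Replicate numbers did not pair libraries of the 2 lines (r of same-numbered deviations -0.075 to 0.063). With number as a block 8386 genes were called, no named gene's call changed, and the mitochondrial share difference of 0.14 (0.142) had an exact permutation p of 0.117. The block used the same numbers for both lines and so did not model pairs within a line. Each library's best match in the other line had its own number in 9 of 32 cases. Depth limits genes with few counts, such as CDK9.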

Other observations

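Further gene groups were read in the same libraries. Of 25 neuronal and synaptic genes 7 were tested, 5 higher in RH4 (RBFOX1, INA, NCAM1, NRCAM and L1CAM, from -1.96 to -7.33) and 2 in PSN1 (TUBB3 at 1.15 and SNAP25 at 8.73). Of 24 cancer-testis antigens only DDX43 was tested, higher in PSN1 (5.63).

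Within a line, libraries with the same replicate number at 4 h and 8 h tended to resemble each other. For 12 of 16 libraries the best match at the other time of the same line had the same number. The r of same-numbered deviations within a line ran from -0.0149 to 0.223 (median 0.0798). For other numbers it ran from -0.167 to 0.0979 (median -0.0161). The genes that follow were picked after their values were seen. KRT17 in RH4 read 99.5, 60.9, 24.5 and 17.6 CPM for replicates 1 to 4 at 4 h and 100.2, 54.8, 20.1 and 18.2 at 8 h. PHLDA1 in PSN1 read 195.5, 166, 204.5 and 435 CPM at 4 h and 144.5, 118, 189.8 and 417 at 8 h, highest in replicate 4 both times. KRT18 in PSN1 was highest in replicates 1 and 2 at both times. What a number stands for in the labels is not given.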
